A study of Mus musculus with 28 samples.

Results

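The 9 transcription factors described here belong to the interferon regulatory factor (IRF) and signal transducer and activator of transcription (STAT) families and were followed through endotoxin-induced uveitis (EIU) in retinal microglia. They were chosen by name from a table of 40021 genes: Irf1, Irf2, Irf3, Irf5, Irf7, Irf8, Irf9, Stat2 and Stat3. All 9 members were among the 13164 genes tested, those that reached an RPKM of 1 in 5 or more of the 28 retinas. RPKM is a read count divided by transcript length and by the mapped reads of the library. Each mRNA-Seq library came from live microglia sorted from a single retina. EIU was induced by intravitreal lipopolysaccharide (LPS), an agonist of Toll-like receptor 4. The groups were naïve retinas (n = 10) and retinas taken after injection, at 4 h (n = 6), 18 h (n = 5) or 2 weeks (n = 7). No group was injected without LPS, so effects of LPS and of the injection itself cannot be told apart.

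All mice were male heterozygotes of the Cx3cr1CreER:R26-tdTomato line on C57BL/6, and every group carried the same alleles. Tamoxifen was given at 4 to 5 weeks of age, and 10 ng of LPS was injected 4 weeks later. Cells with high tdTomato that excluded the dead-cell dye DRAQ7 were collected, so the cells measured were those in which Cre driven by Cx3cr1 had recombined, in mice with CreER at a Cx3cr1 locus. The work was done as 2 experiments, named as such in the labels: 6 and 4 naïve, 3 and 3 at 4 h, 4 and 1 at 18 h, and 4 and 3 at 2 weeks. The labels name the eye as left or right but do not tie an eye to an animal, so p-values measure only the spread between retinas.

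IRFs bind DNA through a shared amino-terminal domain that reads repeats of GAAA, the core of the interferon-stimulated response element (ISRE). Irf3 and Irf7 are held inactive in the cytoplasm, and kinases downstream of nucleic acid sensors and of Toll-like receptors that signal through TRIF activate them to induce type I interferon. Interferon receptors then signal through Janus kinases to a complex of STAT factors and Irf9, called ISGF3, in which Stat2 supplies the main activation domain. Stat3 serves the receptors for interleukin (IL)-6 and IL-10 and binds gamma-activated sequences (GAS). Irf8 acts in the development of microglia, and Irf1 and Irf2 bind the same sites, with Irf2 known mainly as a repressor.

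All 7 microglial markers, Cx3cr1, Tmem119 and P2ry12 among them, were above 0 in all 28 retinas. Their summed RPKM ran from 2680 to 4300 in naïve retinas, 550 to 2070 at 4 h, 1260 to 2630 at 18 h and 2690 to 4010 at 2 weeks. Rod photoreceptor transcripts were also present, with 5 markers summing to 205 to 3840 in naïve retinas, 320 to 3110 at 4 h, 138 to 1340 at 18 h and 286 to 3870 at 2 weeks. The 5 Müller glia markers summed to 249 to 4960 in naïve retinas, 900 to 2370 at 4 h, 138 to 1750 at 18 h and 938 to 10100 at 2 weeks. This sum mainly follows Apoe, with a naïve median of 1660. The naïve medians of Glul, Slc1a3, Rlbp1 and Aqp4 were 101, 11.1, 7.51 and 2.28. The 4 endothelial markers summed to at most 4.1 in any retina. Libraries held 7510000 to 19700000 alignments. Between 6552 and 11825 genes reached an RPKM of 1, and 4 retinas fell below 8000 genes: naïve retinas 3 and 4, 18 h retina 4 and 2-week retina 1. These bulk values cannot tell fewer cells of a type from less RNA per cell.

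The factors whose RNA passed the test at any time were Irf1 and Irf7, so the DNA before their starts is shown. Irf1 lies on chromosome 11 (GRCm38, 53770014 to 53778374, plus strand) and Irf7 on chromosome 7 (141262706 to 141266481, minus strand), and both are protein-coding. The sequences are from RefSeq on GRCm38.p6 and hold the 250 bases before a RefSeq transcript start, chr11:53769764-53770013 for Irf1 and chr7:141266425-141266674 for Irf7, read 5′ to 3′ on the strand of the gene. Capitals mark matches to a GAS (TTCNNNGAA) and, nearest the start of Irf1, to the NF-kappa B consensus.
Irf1: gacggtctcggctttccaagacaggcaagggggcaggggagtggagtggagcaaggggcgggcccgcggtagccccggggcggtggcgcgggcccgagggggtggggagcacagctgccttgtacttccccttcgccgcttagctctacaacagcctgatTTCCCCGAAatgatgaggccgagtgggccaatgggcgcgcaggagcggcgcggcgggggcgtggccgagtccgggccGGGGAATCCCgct
Irf7: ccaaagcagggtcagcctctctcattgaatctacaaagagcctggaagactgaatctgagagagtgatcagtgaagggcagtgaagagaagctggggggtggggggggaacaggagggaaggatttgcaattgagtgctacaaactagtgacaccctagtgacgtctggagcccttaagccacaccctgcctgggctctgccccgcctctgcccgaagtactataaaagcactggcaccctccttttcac
The GAS match of Irf1 began 90 bases before the start and the NF-kappa B match 13 bases before it. The Irf7 window held neither of these, nor an ISRE core, taken as GAAA, any 2 bases and GAAA.

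The same search, on both strands and to 50 bases past the start, covered 12 windows that stood for all 9 members. The ISRE core was found in the windows of Irf2 (starting at -241 from the start of transcription) and Stat2 (-222). A GAS was found in those of Irf1, Irf2 (-224) and Irf8 (-171 and -153), and NF-kappa B in those of Irf1 and Irf2 (-17). None of these matches overlapped another. Irf1, Irf8 and Irf9 each had another window, at a different RefSeq transcript start, and it held no match to any of these motifs. Of the 27025 genes with a window, 3.99% held the ISRE core, 9.55% a GAS and 5.14% the NF-kappa B consensus. The library kit does not mark strand, so reads from overlapping genes cannot be told apart. Of the exonic bases of Irf5, 14.1% also belong to Tnpo3 on the opposite strand, against 0% to 3.4% for the other 8 members.

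RPKM is scaled to gene length, so levels can be ranked between genes. The highest member in naïve microglia was Irf5, a factor that acts after Toll-like receptors, with a median RPKM of 39.4 (22.3 to 150). Then came Irf8 at 15.1 (5.03 to 89.1) and Irf2 at 15.0 (4.31 to 24.4). Irf9 stood at 9.13 (1.39 to 16.8), Irf3 at 7.38 (5.23 to 18.9) and Irf1 at 7.26 (0.0295 to 10.7). The lowest 3 were Stat2 at 2.38 (0.727 to 11.1), Stat3 at 2.26 (0.0471 to 16.6) and Irf7 at 1.3 (0 to 12.1). Every neighbouring pair in this order overlapped in range. Irf5 was higher in every naïve retina than the highest value of Irf9, Irf3, Irf1, Stat2, Stat3 or Irf7.

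The order at the other times was different in a few places. At 4 h the median of Irf1, 29.6, stood beside that of Irf5, 30.0, and Irf7 was lowest at 5.11. At 18 h Irf7 was highest at 24.5, followed by Irf8 at 20.3 and Irf9 at 17.8, with Irf5 at 15.5. By 2 weeks Irf5 (36.1), Irf8 (26.7) and Irf2 (16.4) again led and Stat2 (2.42) was lowest. These orders are descriptions of group medians and were not tested.

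**Figure D1:**
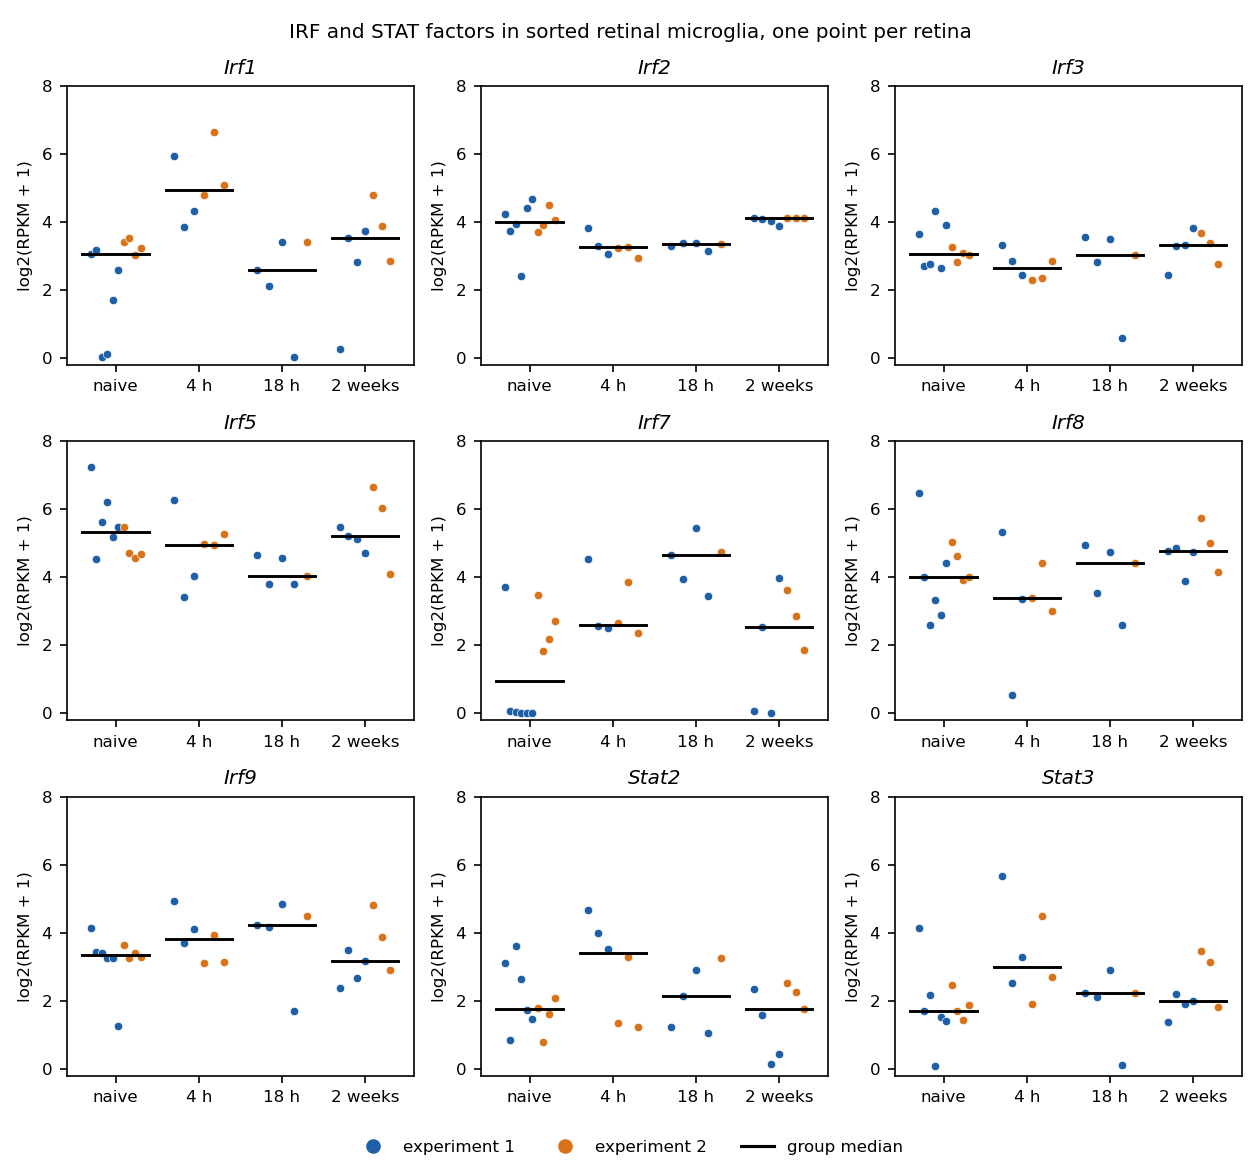
RPKM of the 9 factors in each of the 28 retinas, as log2(RPKM + 1), by group; a point is a retina, its colour the experiment and the black line the group median. All 6 retinas at 4 h lie above all 10 naïve retinas for Irf1, and 4 of 5 retinas at 18 h for Irf7.

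The first comparison asked which factors changed in early EIU, 4 h after LPS. Irf1, which induces antigen-presentation and guanylate-binding-protein genes, rose and was the only 1 of 9 members called, that is, with an adjusted p no higher than 0.05 and a 2-fold or larger change. Across all genes tested, 8.08% were called at 4 h, 3.68% as higher and 4.39% as lower. Naïve retinas held Irf1 at RPKM values of 0.0295 to 10.7 with a median of 7.26. The 4 h retinas stood at 60.0, 13.5 and 18.8 in experiment 1 and 26.4, 99.0 and 32.7 in experiment 2. All 6 were thus above every naïve retina, which held for 1.65% of all genes.

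The Irf1 change was 2.71 ± 0.63 (SE) on the log2(RPKM + 1) scale, a 6.52-fold rise with a 95% interval of 2.67 to 16.0 (limma, adjusted p = 0.0043). This pseudocount understates the change of low values, and naïve retinas 3 and 4, with few genes detected, held Irf1 at 0.0295 and 0.0847. Among retinas with at least 8000 genes the change was 2.13 ± 0.40 (limma, adjusted p = 0.00042).

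Irf7 and Stat3 were the next highest, but neither passed. Irf7, the factor that amplifies type I interferon, was listed at 0 in 3 naïve retinas, at 0.0311 and 0.0416 in 2 more, and at 2.56, 3.56, 5.63, 10.1 and 12.1 in the other 5. At 4 h it stood at 22.5, 4.96 and 4.75 in experiment 1 and 5.27, 13.5 and 4.16 in experiment 2. All 6 values exceeded the naïve median and 2 exceeded every naïve retina. The difference was 1.68 ± 0.65 log2 (limma, adjusted p = 0.11).

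Stat3 ran from 0.0471 to 16.6 in naïve retinas, with a median of 2.26. Its values at 4 h were 49.7, 4.7 and 8.81 in experiment 1 and 2.74, 21.5 and 5.51 in experiment 2. Here too all 6 exceeded the naïve median and the groups overlapped, and the difference was 1.58 ± 0.53 log2 (limma, adjusted p = 0.061). The highest naïve value, 16.6, came from naïve retina 1. Without that retina Stat3 differed by 1.83 log2 (limma, adjusted p = 0.015) and Irf7 by 1.94 log2 (limma, adjusted p = 0.048), and 3 of 9 members were then called. Stat3 was also called without 4 h retina 4 (limma, adjusted p = 0.027) or without 18 h retina 4 (limma, adjusted p = 0.043), each giving 2 members.

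The remaining 6 members did not pass at 4 h. The 2 partners in ISGF3 were Stat2, at 1.04 ± 0.53 log2 (limma, adjusted p = 0.26), and Irf9, at 0.59 ± 0.44 log2 (limma, adjusted p = 0.50). Irf3, Irf5, Irf8 and Irf2 had negative differences of -0.54, -0.55, -0.79 and -0.69 log2, with adjusted p-values (limma) of 0.45, 0.51, 0.46 and 0.14. For Irf2 the 6 retinas, at 6.62 to 13.2, were all below the naïve median of 15.0, but naïve retina 4 was lower still at 4.31. The median difference over the 9 members was 0.59 log2, against -0.11 over all genes tested.

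Markers of other cells were also read at 4 h. The 6 monocyte markers summed to 10.4 to 174 against 13.7 to 76.2 in naïve retinas, with Chil3 and Ly6c2 at medians of 0. The 5 lymphocyte markers summed to at most 0.237, and the 6 neutrophil markers to 0.293 to 36.8 against 5.6 to 83.0. Ms4a4c, in the monocyte list, ran from 5.53 to 158 at 4 h against 8.59 to 56.9 in naïve retinas. The part of these markers and of the lower microglial sum at 4 h in these results was not tested.

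At peak infiltration, 18 h after LPS, Irf7 rose and was again the only 1 of 9 members called, where 4.69% of all genes were called, 2.84% as higher and 1.85% as lower. Its RPKM was 24.5, 14.3, 42.7 and 9.94 in experiment 1 and 26 in experiment 2. In 4 of these 5 retinas it stood above the highest naïve value of 12.1, and the exception was 18 h retina 4, at 9.94. No member was above every naïve retina in all 5, as 2.05% of all genes were. The change was 3.05 ± 0.69 log2, or 8.28-fold with a 95% interval of 3.13 to 21.9 (limma, adjusted p = 0.006). That fold depends on the pseudocount, since 5 naïve values lay near 0, and it was 1.31 log2 with a pseudocount of 10 and 4.68 log2 with 0.1.

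Irf1 stood below the highest naïve value in all 5 retinas at 18 h, at 5.0, 3.37, 9.57, 0.0222 and 9.57, a difference of -0.08 ± 0.67 log2 (limma, adjusted p = 0.97). Stat3 and Stat2 differed from naïve by 0.06 ± 0.56 and 0.15 ± 0.56 log2 (limma, adjusted p = 0.97 and 0.93). Irf9 stood at 17.8, 16.9, 27.9, 2.27 and 21.6, so that 4 of 5 retinas exceeded every naïve retina and 18 h retina 4 was near the bottom. Its difference was 0.66 ± 0.47 log2 (limma, adjusted p = 0.51). Irf8 differed by -0.09 ± 0.59 log2 (limma, adjusted p = 0.96).

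Irf5 stood lowest against naïve at 18 h. Its values of 24.2, 13, 22.6, 13 and 15.5 all lay below the naïve median of 39.4, and 3 of 5 lay below every naïve retina. The difference, -1.20 ± 0.45 log2, did not pass (limma, adjusted p = 0.13). Irf2 was held in a narrow band of 7.79 to 9.5, below the naïve median in all 5 retinas, at -0.66 ± 0.30 log2 (limma, adjusted p = 0.24). Irf3 gave -0.52 ± 0.40 log2 (limma, adjusted p = 0.55). The median over the 9 members was -0.08 log2 at 18 h, the same as over all genes tested.

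Markers of other immune cells also moved at 18 h, beside the Irf7 result. The 6 monocyte markers summed to 147 to 322 at 18 h against 13.7 to 76.2 in naïve retinas, and 134 to 315 of this was Ms4a4c. Plac8 had a median of 6.63 at 18 h against 0.108 in naïve retinas and was not called. F13a1 had a median of 0.328 at 18 h against 5.69, and Ly6c2, Chil3 and Ccr2 stood at 0.0321, 0 and 0.107 against 0, 0 and 0.0416. The 5 lymphocyte markers summed to 6.59 to 86.4 against at most 0.0806, of which Nkg7 made up 5.77 to 86.4, and the T-cell markers Cd3d and Cd3e had medians of 0.476 and 0.13 at 18 h against 0 and 0 in naïve retinas. The B-cell markers Cd79a and Ms4a1 had medians of 0. Among 6 neutrophil markers, which summed to 2.86 to 26.6 at 18 h and 5.6 to 83.0 in naïve retinas, Csf3r had the highest median of the list in both groups, 10.2 at 18 h and 16.9 in naïve retinas. S100a8 and S100a9 had medians of 0.638 and 0.994 at 18 h against 0 and 0, and Ly6g, Retnlg and Mpo of 0 in both groups. Of the Müller glia markers, Glul was called lower at 18 h, with a median of 39.6 against 101, and of the rod markers Nrl was, with 2.85 against 10.6. Summed microglial markers were lower at 18 h, as given above. P2ry12, the largest of them in naïve retinas, had a median of 139 at 18 h against 1770 and was called. Siglech, Csf1r and Sall1 were also called, with lower medians. Aif1 had a higher median, 1110 against 721, and Cx3cr1 stood at 65.9 against 76.2. Neither was called, nor was Tmem119, at 85.9 against 130. The part of these markers in the Irf7 result was not tested.

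**Figure D2:**
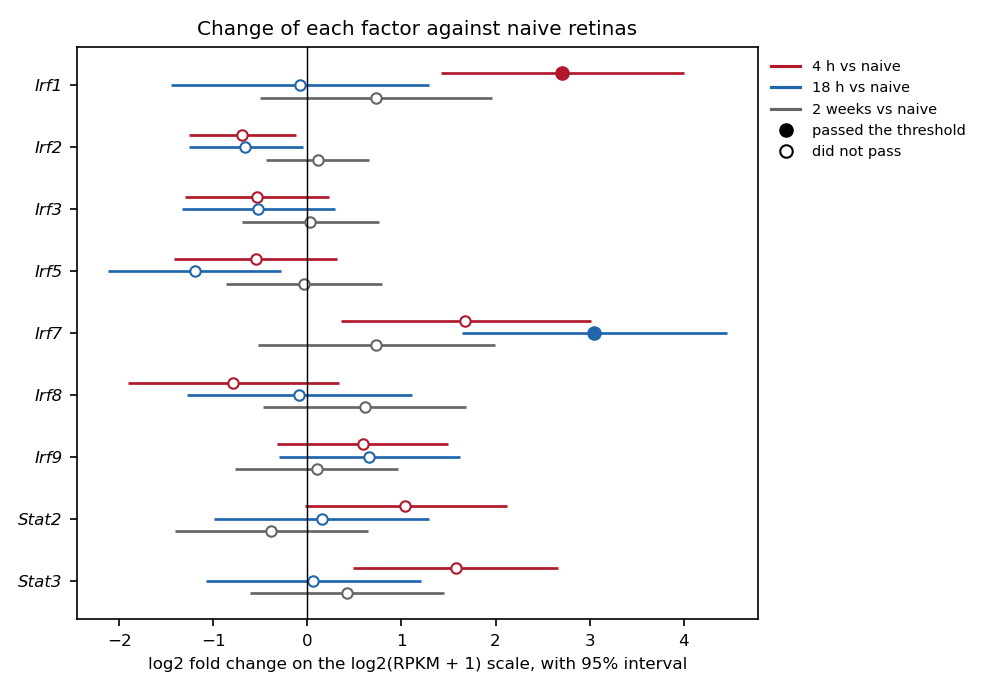
Difference of each factor from naïve retinas at the 3 times after LPS, as log2 fold change on the log2(RPKM + 1) scale with its 95% interval. Filled points passed the threshold: Irf1 at 4 h (2.71) and Irf7 at 18 h (3.05), and no member at 2 weeks.

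A direct contrast of 18 h with 4 h tested whether a factor differed between the early and peak stages. Irf1 was lower at 18 h by -2.79 ± 0.74 log2 (limma, adjusted p = 0.02), and its 5 values at 18 h, 0.0222 to 9.57, all lay below the 6 at 4 h, 13.5 to 99.0. It was the only 1 of 9 members with an adjusted p of at most 0.05 in this contrast, against 5.46% of all genes, 2.52% as lower at 18 h. Leaving out 4 h retina 1, 4 h retina 5, 18 h retina 2 or 18 h retina 4 left no member past that threshold, with an adjusted p for Irf1 of up to 0.087 (limma), and 18 h retina 4 held the value of 0.0222. For Irf7 the contrast gave 1.37 ± 0.76 log2 (limma, adjusted p = 0.40), so its level at 18 h was not shown to differ from that at 4 h. Stat3 gave -1.51 ± 0.62 log2 (limma, adjusted p = 0.19), with 0.0747 to 6.45 at 18 h and 2.74 to 49.7 at 4 h.

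At 2 weeks after LPS no member was called, with an adjusted p of 1 for all 9 (limma), and 0.0076% of all genes were called. An unadjusted p under 0.05 was reached by 0 of 9 members and by 2.87% of all genes. Irf1 stood at 0.203, 10.5, 6.05 and 12.4 in experiment 1 and 26.5, 13.7 and 6.14 in experiment 2, a difference of 0.73 ± 0.60 log2, and 3 of these 7 retinas were above every naïve retina. Irf7 ran from 0 to 14.7 with a median of 4.78, a difference of 0.73 ± 0.62 log2, within the naïve range in 6 of 7 retinas. The intervals leave room for differences in fold: 0.706 to 3.89 for Irf1 and 0.69 to 3.98 for Irf7, and 0.738 to 1.57 for Irf2, the narrowest. The other 7 members differed by -0.39 (Stat2) to 0.61 log2 (Irf8).

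The 4 h retinas came from both experiments, 3 from each, so the early change was also taken within each experiment, with 6 and 4 naïve retinas. Irf1 was higher by 2.91 ± 0.81 log2 in experiment 1 (limma, adjusted p = 0.025) and by 2.19 ± 0.88 log2 in experiment 2 (limma, adjusted p = 0.33), from a fit in which all groups share their spread. It was called in experiment 1, as 7.21% of all genes were, and not in experiment 2, where 1.66% were. Fitted on each experiment alone, the adjusted p-values (limma) were 0.10 and 0.011, so which experiment passed depended on the spread used. The naïve baseline of Irf1 was 0.0295 to 8.11 in experiment 1 and 7.2 to 10.7 in experiment 2.

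Irf7 and the ISGF3 genes had larger estimates in experiment 1 than in experiment 2. Irf7 was 2.58 ± 0.83 log2 higher than naïve in experiment 1 (limma, adjusted p = 0.058) and 0.40 ± 0.90 log2 higher in experiment 2 (limma, adjusted p = 0.99). Its level at 4 h overlapped between the 2 experiments, 4.75 to 22.5 and 4.16 to 13.5, while 5 of 6 naïve retinas of experiment 1 were at or below 0.0416 and the 4 of experiment 2 were at 2.56 to 10.1. Stat2 differed by 1.84 ± 0.62 log2 in experiment 1 (limma, adjusted p = 0.074) and 0.38 ± 0.67 log2 in experiment 2 (limma, adjusted p = 0.98), and Irf9 by 1.12 ± 0.60 and 0.00 ± 0.65 log2. Stat3 differed by 1.99 ± 0.74 and 1.16 ± 0.80 log2.

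None of the 9 members passed a test of the difference between experiments in the 4 h change (limma, adjusted p = 1 for all), and 0.0988% of all genes did. An unadjusted p under 0.05 was likewise reached by 0 of 9 members, against 4.71% of all genes. The difference, experiment 2 minus experiment 1, was -2.18 log2 for Irf7 with a 95% interval of -4.70 to 0.33, and -1.46 log2 for Stat2 with -3.32 to 0.41. In levels, Stat2 was the only 1 of 9 members whose 4 h retinas did not overlap between experiments, at 24.3, 15.0 and 10.6 against 1.54, 8.72 and 1.34, and 17.5% of all genes did not overlap. An exact two-sided permutation test of 3 against 3 gave p = 0.1, the smallest it allows (0.6 adjusted over the 9 members).

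**Figure D3:**
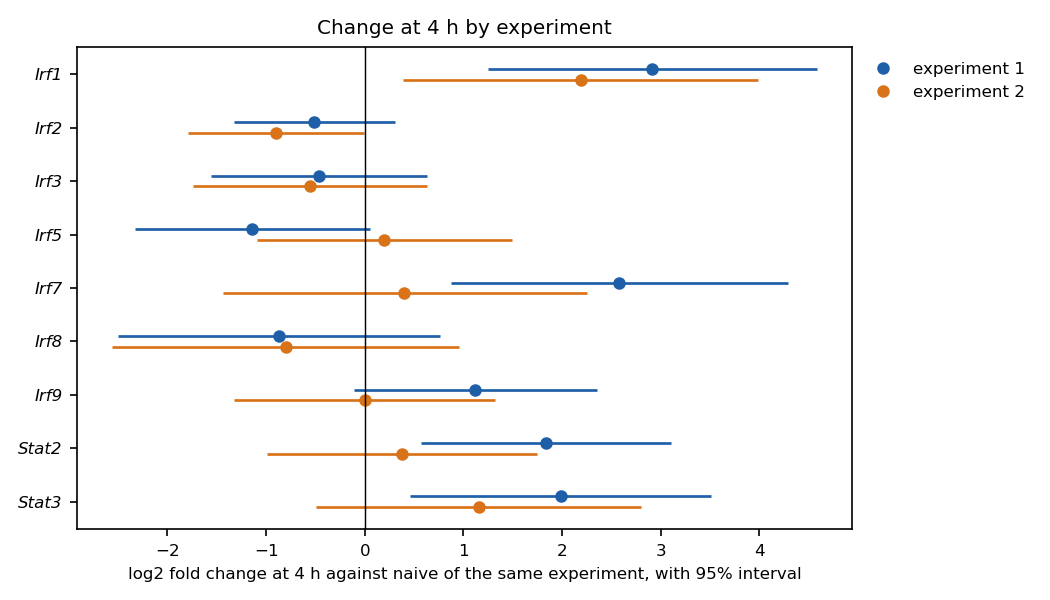
Difference of each factor at 4 h from the naïve retinas of the same experiment, as log2 fold change with its 95% interval. Irf1 is above 0 in both experiments (2.91 and 2.19), and Irf7 stands at 2.58 in experiment 1 and 0.40 in experiment 2.

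Genes that act upstream of the factors were read from lists of known pathway genes. The lists were chosen with earlier results of these data known, so their counts are descriptions. Ifih1, Usp18, Socs1 and Socs3 are counted both among the sensors or inhibitors and among the target genes. Over all genes tested, 3.68% rose and 4.39% fell at 4 h, and 2.84% rose and 1.85% fell at 18 h, the shares against which the counts below are read. Of 6 interferon genes, Ifnl2 and Ifnl3 were not listed under these symbols among the 40021 genes, and Ifna2, Ifna4 and Ifng were too low to test. Only Ifnb1, which encodes interferon beta, was tested. It rose at 4 h by 5.64 ± 0.72 log2 (limma, adjusted p = 1.1e-06). It was listed at 0 in 7 of 10 naïve retinas, with the highest at 19.3. At 4 h its RPKM was 65.2, 9.71 and 26 in experiment 1 and 522, 269 and 307 in experiment 2. These did not overlap, as held for 17.5% of all genes. The test of the difference between experiments in the 4 h change gave 3.89 log2 and did not pass (limma, adjusted p = 0.48). Ifnb1 was listed at 0 in all 5 retinas at 18 h.

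Of the 6 tested genes for IL-6 family and IL-10 ligands, 4 rose at 4 h and 1 at 18 h, with list medians of 2.60 and 0.95 log2. The subunits of IL-27 led: Il27 had a median RPKM of 0.957 in naïve retinas and 45.6 at 4 h (3.87 ± 0.64 log2; limma, adjusted p = 7.7e-05). The 4 h values of Il27 were 72.7, 113 and 77.4 in experiment 1 and 7.4, 18.4 and 2.9 in experiment 2, and its change differed between them by -4.96 log2, experiment 2 minus experiment 1 (limma, adjusted p = 0.034). Ebi3 had medians of 29.4 in naïve, 196 at 4 h and 221 at 18 h. Ebi3 was called at both times, at 3.70 ± 0.74 and 3.33 ± 0.79 log2 (limma, adjusted p = 0.00093 and 0.009).

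Among 7 genes for interferon receptors and Janus kinases, Jak2 rose at 4 h, from a median of 2.72 to 12.2 (2.24 ± 0.52 log2; limma, adjusted p = 0.0037), the other 6 did not pass and none passed at 18 h. With 8.08% of all genes called at 4 h, 1 of 7 is no result about the list. Of 6 tested receptors that activate STAT3, 1 rose and 3 fell at 4 h. Il10ra, the IL-10 receptor chain, rose by 1.54 ± 0.46 log2 (limma, adjusted p = 0.03), a call lost under 6 of 15 alternatives (limma, adjusted p of up to 0.55) and without naïve retina 6, 4 h retina 1, 4 h retina 4, 4 h retina 5 or 4 h retina 6 (up to 0.11). Lifr and Il6ra fell at 4 h, by 1.83 and 1.29 log2, and at 18 h, by 1.57 and 1.56 log2 (limma, adjusted p = 0.00022, 0.009, 0.0049 and 0.0054 in that order).

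Of 20 tested sensors, adaptors and kinases upstream of the IRFs, 4 rose and 1 fell at 4 h, and 1 rose at 18 h, where 4.69% of all genes were called, close to 1 of 20. Ifih1, a sensor of double-stranded RNA, rose from a median of 2.80 to 34.3 at 4 h (2.99 ± 0.37 log2; limma, adjusted p = 5.1e-07), with all 6 retinas above every naïve retina. Tank, a scaffold of the kinases that activate Irf3 and Irf7, rose by 2.10 ± 0.44 log2 (limma, adjusted p = 0.0013). Tlr4, the receptor for LPS, fell by 2.15 log2 at 4 h (limma, adjusted p = 0.00097), to 0 to 1.63 from 0.697 to 12.4, and stood at 0.729 to 12.6 at 18 h. Ikbke, which encodes such a kinase, was listed at 0 in 9 of 10 naïve retinas and stood at 0.336 to 6.24 at 4 h and 0.117 to 2.89 at 18 h. It was called at both times, at 1.52 ± 0.27 and 1.20 ± 0.29 log2 (limma, adjusted p = 0.00025 and 0.011), and the 18 h call was lost under 5 of 14 alternatives (up to 0.31) and without 18 h retina 1 or 18 h retina 3 (up to 0.068).

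Among 15 tested inhibitors of these pathways, 4 rose at 4 h and none was called at 18 h (limma). Socs3, which blocks the receptors that use STAT3, rose by 5.66 ± 0.59 log2 (limma, adjusted p = 2.8e-08), with RPKM values of 29.2 to 724 at 4 h, 0 to 15.8 in naïve retinas and 0.884 to 12.9 at 18 h. Ptpn1, a phosphatase that acts on Janus kinases, rose by 2.06 ± 0.51 log2 (limma, adjusted p = 0.0072).

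Of 10 tested partner transcription factors, 2 rose and 2 fell at 4 h, and 2 rose and 1 fell at 18 h. Batf, which pairs with IRFs on composite sites, rose from a median of 3.64 to 120.0 at 4 h and 41.1 at 18 h (4.75 ± 0.64 and 3.04 ± 0.68 log2; limma, adjusted p = 2.6e-06 and 0.0052). Nfkb1, an NF-kappa B subunit, rose at 4 h by 1.34 ± 0.31 log2 (limma, adjusted p = 0.0037), and Nmi, which interacts with STATs, rose at 18 h by 1.71 ± 0.51 log2 (limma, adjusted p = 0.045), a call lost under 10 of 15 alternatives (up to 0.22) and on leaving out any of 17 of the 28 retinas in turn, all 5 of the 18 h retinas included (up to 0.11). Ets1 fell at 4 h by 1.41 log2 (limma, adjusted p = 0.0091). Ep300, a histone acetyltransferase recruited by IRFs and STATs, fell by 1.31 log2 at 4 h and 1.19 log2 at 18 h (limma, adjusted p = 0.0056 and 0.032). The call of Ep300 was lost under 4 of 14 alternatives at 4 h (limma, adjusted p of up to 0.17) and 8 of 14 at 18 h (up to 0.38), and at 18 h also without naïve retina 3, naïve retina 6, 18 h retina 1, 18 h retina 2 or 18 h retina 3 (up to 0.10).

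Genes that the factors are known to induce were grouped by the site through which they are usually read. Of 34 tested ISRE-type genes, 12 rose at 4 h and 13 at 18 h, and none fell, where 3.68% and 2.84% of all genes rose, with medians of 1.35 and 1.81 log2 against -0.11 and -0.08 over all genes. Ifit1, which binds viral RNA, rose by 5.90 ± 0.72 log2 at 4 h and 4.21 ± 0.76 log2 at 18 h (limma, adjusted p = 4e-07 and 0.00054). Isg15, a ubiquitin-like modifier, had a median of 4.23 in naïve retinas, 195 at 4 h and 86.6 at 18 h. Ifitm3, a membrane protein that blocks viral entry, was higher at 18 h than at 4 h (2.88 log2; limma, adjusted p = 4.7e-05), with 2430 to 3150 at 18 h, 146 to 906 at 4 h and 53.8 to 305 in naïve retinas.

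Of 25 tested GAS- and IRF1-type genes, 10 rose at 4 h and 8 at 18 h, and none fell, with medians of 0.80 and 0.94 log2. The chemokine gene Cxcl10 rose by 8.51 ± 0.79 log2 at 4 h, to between 1220 and 2570, and by 3.96 ± 0.84 log2 at 18 h, to between 18.7 and 93.7 (limma, adjusted p = 2.7e-09 and 0.0035). Its level fell by 4.56 log2 between 4 h and 18 h (limma, adjusted p = 0.0019). Gbp2, a guanylate-binding protein that Irf1 induces, rose by 4.90 ± 0.58 log2 at 4 h and 3.61 ± 0.61 log2 at 18 h (limma, adjusted p = 2.5e-07 and 0.00027), and the difference between the times did not pass (limma, adjusted p = 0.36).

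STAT3-type genes gave 12 increases among 18 tested at 4 h (median 2.5 log2) and 4 at 18 h (median 1.04 log2). Il1rn, the IL-1 receptor antagonist, was listed at 0 in 7 of 10 naïve retinas and rose by 6.22 ± 0.60 log2 at 4 h (limma, adjusted p = 5.7e-09). Lcn2 and Saa3, acute-phase genes, were higher at 18 h than at 4 h by 2.81 and 8.47 log2 (limma, adjusted p = 0.0076 and 4.2e-08). Saa3 had a median of 0.342 in naïve retinas, 8.88 at 4 h and 4170 at 18 h. It was also the only gene of the 10 lists called at 2 weeks, at 18.2 to 155 against 0.0364 to 0.649 in naïve retinas (5.60 log2; limma, adjusted p = 7.6e-05).

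**Figure D4:**
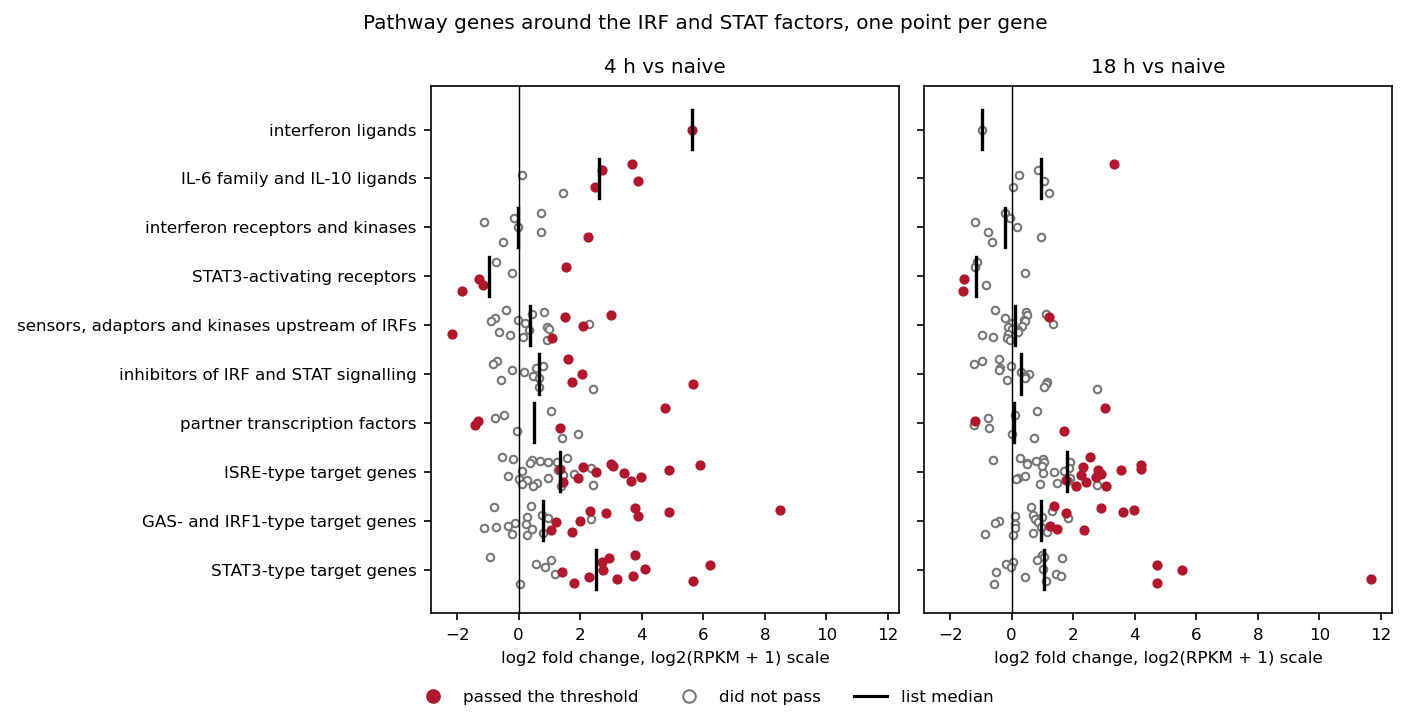
Log2 fold change at 4 h (left) and 18 h (right) against naïve of each tested pathway gene, grouped by list; filled points passed the threshold and the black bar is the list median. ISRE-type genes have 12 called of 34 at 4 h and 13 at 18 h, and STAT3-type genes 12 of 18 and 4.

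By experiment at 4 h the counts were as follows, and the difference between experiments was not tested for a list. It was tested for each gene, and Ifit1 and Il27 were the only pathway genes to pass. Of the ISRE-type genes, 19 of 34 were called in experiment 1 (median 2.42 log2) and 5 in experiment 2 (median 0.06 log2), against 7.21% and 1.66% of all genes. The GAS- and IRF1-type list gave 12 and 3 of 25 (medians 1.62 and 0.17 log2) and the STAT3-type list 9 and 6 of 18 (medians 2.34 and 1.81 log2). Ifit1 stood at 233, 849 and 607 in experiment 1 and 65.6, 178 and 30.9 in experiment 2, all above the highest naïve value of 16.1, and its 4 h change differed between experiments by -5.40 log2, experiment 2 minus experiment 1 (limma, adjusted p = 0.027). The 4 h values of Ifnb1 were higher in experiment 2 and those of Ifit1 and Stat2 in experiment 1. Of these genes only Ifit1 passed the test of the difference between experiments. Experiment 1 had 6 naïve retinas and experiment 2 had 4, and the naïve baseline differed as given for Irf1 and Irf7. Detection differed too: naïve retinas 3 to 6, all of experiment 1, held 6552 to 8562 genes at an RPKM of 1. Naïve retinas 1 and 2 held 11825 and 10358, and those of experiment 2 held 11129 to 11429. Ifit1 was listed at 0 in naïve retinas 3 to 6 and at 5.53 to 16.1 in those of experiment 2. The part of detection in the differences between experiments was not tested.

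The genes whose levels followed the called members most closely over the 28 retinas were found by Pearson correlation of log2(RPKM + 1) with 13163 other genes. The libraries share depth and group differences, so these values are descriptions. For Irf1 they were Icosl (r = 0.91), Swap70 (r = 0.91) and Nfkbib (r = 0.90), with median RPKM values of 52.0, 19.0 and 104 at 4 h and 4.79, 3.57 and 7.49 in naïve retinas. For Irf7 they were Nop56 (r = 0.90), Hmox1 (r = 0.89) and Rac2 (r = 0.87), with medians of 72.0, 41.7 and 102 at 18 h and 17.8, 4.09 and 19.2 in naïve retinas.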

How the data were processed

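Retinal microglia of 28 retinas were sorted and sequenced from SMART-Seq v4 cDNA with Nextera XT libraries, which do not mark strand. Per the labels and methods, reads were converted with bcl2fastq 2.20, aligned with STAR 2.5.3a to mm10 and assigned to Ensembl transcripts in Partek, whose estimation step can divide a read among transcripts. The authors deposited RPKM per gene, so depth per gene cannot be recovered, and precision was judged from the spread between retinas. Their tables of fold changes and p-values for 4 h and 18 h were not used.

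Groups and experiments were taken from the labels. RPKM was tested as log2(RPKM + 1) with limma 3.58.1 (R 4.3.3, empirical Bayes with a variance trend) in a fit of all 4 groups, after a filter of RPKM at least 1 in at least 5 retinas (13164 of 40021 genes; 4 lines share a symbol with another). P-values were adjusted by the Benjamini-Hochberg method over all genes tested. Calls needed an adjusted p no higher than 0.05 and a 2-fold or larger change; the contrast of 18 h with 4 h and the difference between experiments used the adjusted p alone. The scripts were tested on simulated data. At most 1 gene value above 0 was identical between any pair of retinas. Gene positions are from GENCODE M21 on GRCm38, and promoter windows from RefSeq, searched with Python 3.

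The members and the gene lists were chosen with earlier results of these data known. The text names all 9 members, up to 2 increases and 2 decreases per list and time among called genes, and the 3 genes most alike each called member. Isg15, Ikbke, Saa3 and Lcn2 are also given at a time other than the one for which they were picked, and Ifit1 and Ifnb1 in each experiment. Other IRF and STAT genes were not analysed here. Some marker genes are not reported here and were left out of the marker sums.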

Additional observations from a re-analysis of the deposited data

Results flagged for a closer look

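Among the 36 sets of values tested (9 members in 4 groups), 6 held a retina far from the rest of its group by Dixon's criterion. Its rate of about 5% by chance is for independent, normally distributed values. These were untransformed RPKM values of members measured in the same retinas, so that rate need not hold here. Naïve retina 1 gave 3 of them and stood at 150 for Irf5 (next highest 74.0), 89.1 for Irf8 (next 32.2) and 16.6 for Stat3 (next 4.51). This retina also had the most genes at an RPKM of 1 or more, 11825. Irf2 stood at 13.2 in 4 h retina 1, above the next value of 8.71, and at 13.6 in 2-week retina 4, below the next of 15.4. Irf9 stood at 27.5 in 2-week retina 5, above the next of 13.6. Without naïve retina 1 and 4 h retina 1, an alternative chosen after seeing the data, Irf1 differed from naïve by 2.61 log2 at 4 h (limma, adjusted p = 0.017) and Irf7 by 3.31 log2 at 18 h (limma, adjusted p = 0.0022).

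Irf1 was flagged because its change from naïve differed between 4 h and 18 h, by -2.79 log2 in the direct contrast (limma, adjusted p = 0.02).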

How the results depend on the processing

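Irf1 at 4 h kept its direction under all 15 alternatives (1.54 to 3.37 log2) and passed under 14, and Irf7 at 18 h likewise (1.31 to 4.68 log2, 14 of 15). Leaving out each of the 28 retinas, Irf1 at 4 h ranged from 2.40 to 2.95 log2 (limma, adjusted p = 0.0014 to 0.022) and Irf7 at 18 h from 2.80 to 3.31 log2 (limma, adjusted p = 0.0023 to 0.031). Where 1 member was called at 4 h, 0 were in experiment 1 only and 3 after quantile normalisation (Irf1, Irf7 and Stat3), and 1 to 3 leaving out a retina. At 18 h, 2 were called under the replicate block and 0 in experiment 2 only, whose single 18 h retina is assumed to vary like the other groups. In the contrast of 18 h with 4 h, 0 passed with a pseudocount of 0.1, with no filter, in experiment 1 only, in experiment 2 only and without naïve retina 1 and 4 h retina 1, 2 by ANOVA on untransformed RPKM, and 0 to 1 leaving out a retina. The cause of these changes was not tested. Same-numbered retinas correlated by -0.329 to 0.698 (34 pairs, 15 over 0.1). Retinas with different numbers were not compared, so these values cannot show whether the numbers pair retinas within an experiment. Some same-numbered retinas came from different experiments, among them naïve and 4 h retinas 4, 5 and 6. With the replicate number as a block, which crosses experiments, Irf5 was added at 18 h (-1.58 log2, limma, adjusted p = 0.039). At equal summed RPKM the 4 h change had an all-gene median of -0.28 log2, against -0.11 as deposited. The limits to the alternatives with 8000 genes and without 2 retinas were chosen after seeing the data.

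Members that were not called changed sign as follows, in log2 units. With a pseudocount of 0.1 these were Stat3 -0.04 at 18 h, Irf3 -0.13 for 18 h against 4 h. With a pseudocount of 10 these were Irf1 0.12, Irf3 0.02, Irf8 -0.19 between experiments. With experiment as a covariate these were Irf1 0.17, Irf8 0.01 at 18 h, Irf3 -0.02 for 18 h against 4 h. Under the replicate block these were Irf1 0.48, Stat2 -0.19, Stat3 -0.03 at 18 h, Irf3 -0.08 at 2 weeks, Irf9 -0.07 for 18 h against 4 h, Irf2 0.17, Irf5 -1.37, Irf8 -1.36 between experiments. In experiment 1 only these were Irf1 0.25, Irf8 0.01, Stat2 -0.40, Stat3 0.00 at 18 h, Irf3 -0.11, Irf9 -0.20 at 2 weeks, Irf2 -0.10, Irf3 -0.25, Irf9 -0.50 for 18 h against 4 h. In experiment 2 only these were Irf5 0.20, Irf9 0.00 at 4 h, Irf1 0.10, Irf8 0.01 at 18 h, Irf5 0.74, Stat2 0.61 at 2 weeks, Stat2 1.3 for 18 h against 4 h. After quantile normalisation these were Irf3 -0.02 at 2 weeks, Irf2 -0.06, Irf9 -0.05 for 18 h against 4 h. At equal summed RPKM these were Stat2 -0.09, Stat3 -0.14 at 18 h, Irf3 0.00 at 2 weeks, Irf2 -0.01 for 18 h against 4 h, Irf8 -0.05 between experiments. By ANOVA on untransformed RPKM these were Stat3 -0.11 at 18 h, Irf3 -0.02 at 2 weeks. In retinas with at least 8000 genes these were Irf3 0.09 at 18 h, Irf2 -0.10, Irf5 0.08 at 2 weeks, Irf1 0.13 between experiments. Without naïve retina 1 and 4 h retina 1 these were Irf8 0.18 at 18 h, Irf5 0.17 at 2 weeks, Irf3 0.07 between experiments. Leaving out each retina in turn gave at 18 h, Irf8 -0.31 to 0.28, Irf1 -0.36 to 0.49, Stat3 -0.18 to 0.52, Stat2 -0.14 to 0.41, Irf3 -0.73 to 0.01, at 2 weeks, Irf5 -0.26 to 0.17, Irf3 -0.07 to 0.16, Irf2 -0.06 to 0.19, Irf9 -0.15 to 0.25, between experiments, Irf8 -1.20 to 1.19, Irf3 -0.31 to 0.13, Stat3 -1.56 to 0.09, for 18 h against 4 h, Irf2 -0.03 to 0.15, Irf3 -0.20 to 0.55, Irf9 -0.17 to 0.62. Among the named pathway genes, the 18 h calls of Nmi, Ep300 and Ikbke and the 4 h call of Il10ra were the ones lost on leaving out a single retina, with the values given beside them. Other named calls were lost under some of the 15 alternatives. Among them, Il6ra lost its call under 3 at 4 h and 4 at 18 h, and Cxcl10 under 3 at 18 h. The 4 h calls of Ifnb1, Ifih1 and Cxcl10 were kept under all 15.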
